A study of Mus musculus with 8 samples.

Results

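Ubiquitin and its relatives SUMO and NEDD8 are small proteins that cells attach to other proteins, and the mRNAs of the enzymes that attach and remove them were followed here from the mouse egg to the one-cell embryo. The members were chosen by name alone: every probe set, a group of short probes against 1 transcript, whose single gene symbol in the platform annotation begins with Ube2 and a letter or with Uba, Sumo, Pias or Senp and a digit, or is Nedd8 or Sae1. The rule found 132 probe sets of 51 genes among 45101 on the array. Each array measured mRNA bound to polysomes, the strings of ribosomes on an mRNA under translation, from a batch of 160 to 500 mouse eggs or embryos. One group held oocytes arrested at metaphase II (MII), in 4 independent batches with no treatment named, and the other held one-cell embryos, in 4 independent batches that had been given α-amanitin, which blocks RNA polymerase II. Strain, age and dose are not stated in the labels. Stage and α-amanitin changed together, so their effects cannot be told apart.

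A ubiquitin-like protein is first activated by an E1 enzyme, then passed to the active-site cysteine of an E2 conjugating enzyme, and finally joined to its target, usually with the help of an E3 ligase. Each modifier has its own E1 and E2, with Uba3 and Ube2f on the NEDD8 branch and Sae1 on the SUMO branch, while ubiquitin is served by many E2 enzymes that differ in the chains they build and the ligases they work with. PIAS proteins are SUMO ligases, and SENP proteases remove SUMO again, except Senp8, which acts on NEDD8. In eggs and embryos these pathways are known for the destruction of cyclin B and securin at the exit from meiosis and for the clearance of maternal proteins after fertilization.

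The members include some that the pathway outline does not cover. Ube2d-ps is annotated as a pseudogene, Uba1y is the Y-linked relative of the main ubiquitin E1, and Ube2cbp is a ligase that binds an E2. A further 6 probe sets that are shared with other genes, among them those of Sumo2 and Ube2l3, fall outside the rule.

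Signal was a linear intensity in arbitrary units. It does not tell apart fewer mRNA molecules, fewer of them on ribosomes, fewer cells of a type and less RNA per cell. The arrays differed in quality. The ratio of 3′ to 5′ signal for Actb was 65.9 on MII array 2 and 4.49 to 11.6 on the other 7 arrays. For Gapdh the ratio was 7.24 on MII array 2 and 3.57 to 9.41 over all 8 arrays. Array medians lay between 26.9 and 33.8 in MII oocytes and between 27.8 and 71.8 in one-cell embryos, with one-cell array 1 the highest, and the geometric mean of 18 hybridization controls was 14880 on that array against 857 to 3718 on the other 7 arrays. The probe set for the 3′ part of 18S ribosomal RNA was the 1 of 9 array measures that separated the groups fully, at 1583 to 2971 in MII oocytes and 10690 to 66750 in embryos (11.3-fold, two-sided exact permutation p = 0.0286, the smallest that 4 against 4 arrays can give, and 0.257 adjusted over the 9). Its part in the results below was not tested. Of 14 oocyte markers measured, 13 lay above the array median on all 4 arrays of each group, Figla being the exception. For cumulus and granulosa cells, 4 of 15 markers did so in each group, their summed signal was 614 to 803 in MII oocytes and 505 to 1640 in embryos, and Amh and Cd44 did not exceed it on any of the 8 arrays. For sperm, 3 of 8 did so in each group (262 to 311 and 236 to 672), and for blood cells 2 of 6 in MII oocytes and 0 in embryos (189 to 226 and 115 to 307). The highest embryo value of each sum was that of one-cell array 1, and the part of other cells in the results was not tested.

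Members moved in both directions. Of the 132 probe sets, 94 of 48 genes were brighter than the median of their array on 4 or more of the 8 arrays and were tested, and the other 38 did not, including every probe set of Ube2d2b, Ube2l6 and Ube2ql1. The change is the mean of log2(signal + 10) in one-cell embryos minus that in MII oocytes, given with limma's SE, and a probe set counts as called where the Benjamini-Hochberg adjusted p over all 23336 probe sets tested was under 0.05. Called members numbered 42 (24 higher and 18 lower in embryos), which is 44.7% of those tested against 32.1% of all probe sets (19.3% higher and 12.8% lower). Members were bright, and calls were more frequent among bright probe sets: above the 75th percentile of the array, 39 of 74 members were called, or 52.7%, against 53.0% of all. The groups did not overlap in 46 of the 94, against 32.6% of all probe sets. At least 4-fold changes were called in 6 members upward and 4 downward, against 6.81% and 2.12% of all. The members' median change was -0.07, beside 0.17 for all probe sets. After quantile normalization the median of all moved to -0.12, and 17 members were higher and 21 lower. The share of higher calls fell from 57.1% to 44.7% in members and from 60.2% to 48.7% over all probe sets. With each array centred on its median (all probe sets at -0.15), 17 were higher and 15 lower. The number lower was 10 without MII array 1 and 11 without MII array 3.

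**Figure D1:**
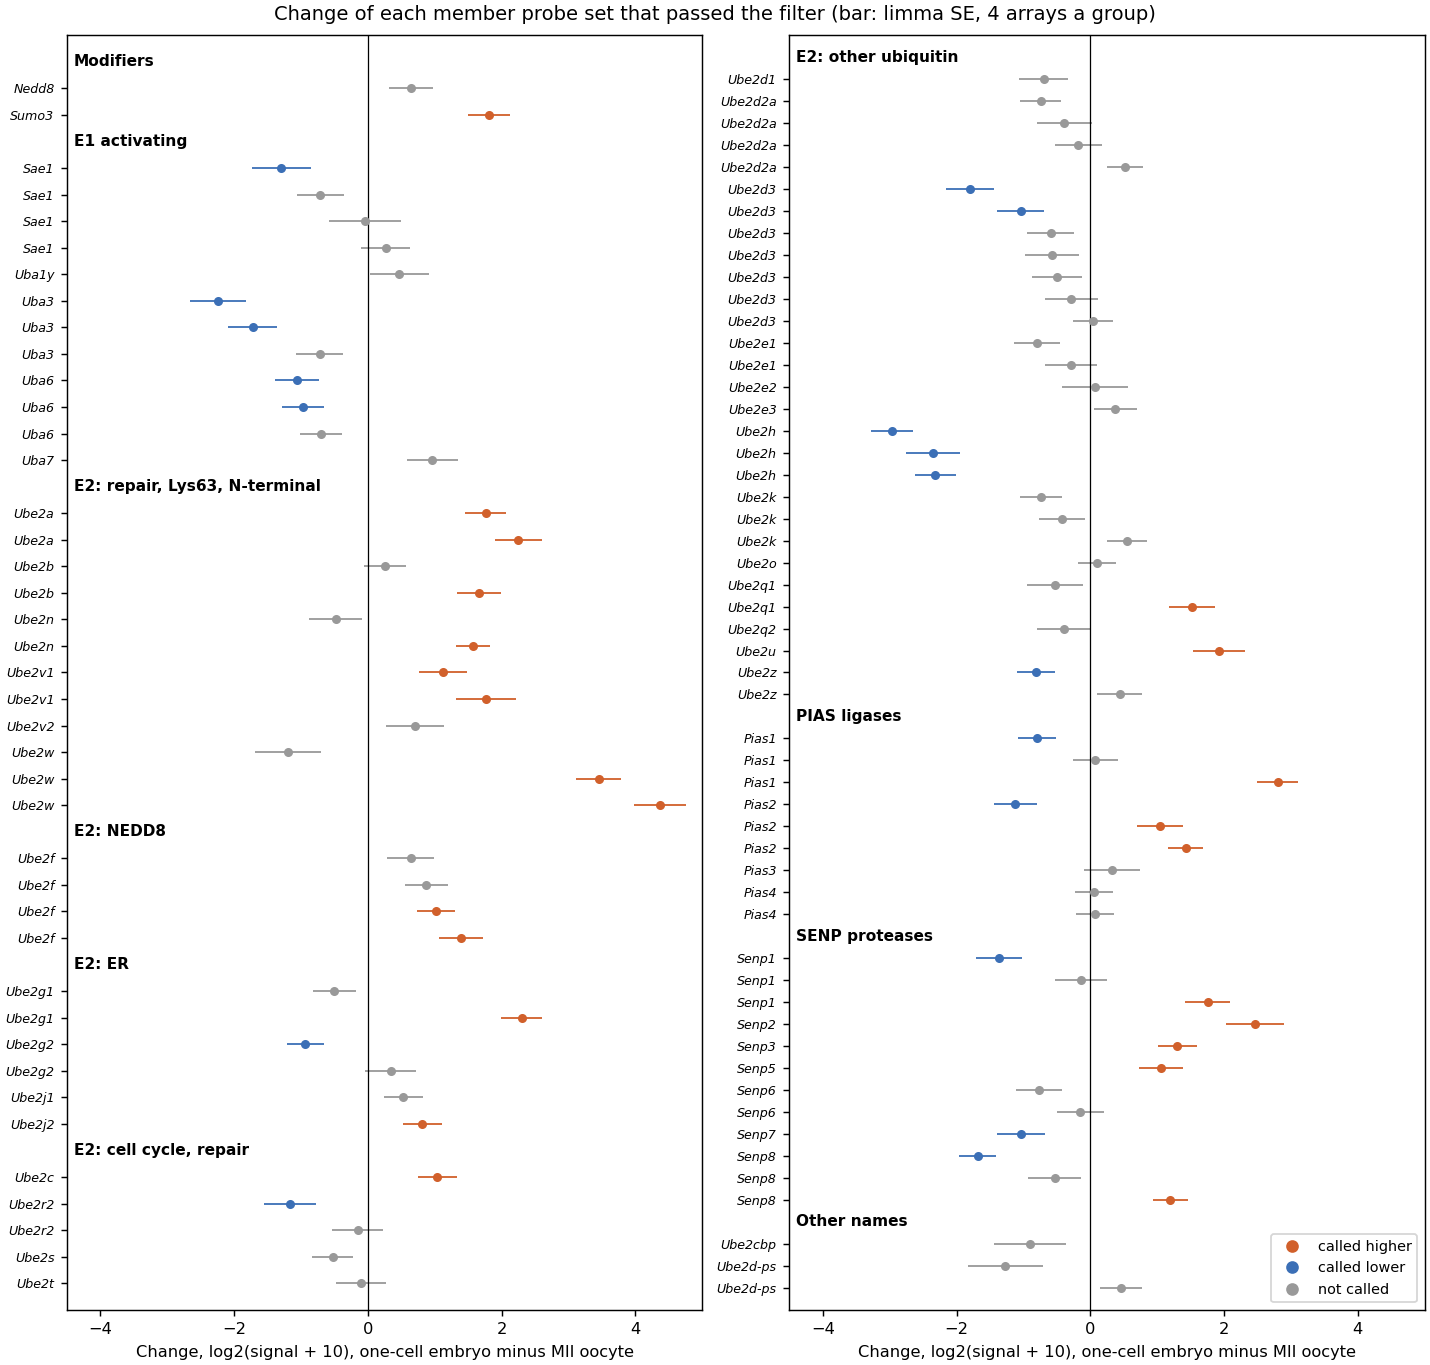
The change in log2(signal + 10) from MII oocytes to one-cell embryos (horizontal axis) of each of the 94 tested member probe sets, by role, with bars for limma's SE over 4 arrays a group; a gene with several probe sets has several rows. Called members reach from -2.97 (Ube2h) to 4.37 (Ube2w), E1 enzymes have calls only to the left of 0, and the E2 list for repair, Lys63 chains and N-terminal ubiquitin has calls only to the right. The lists were drawn up with earlier results of these data known.

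The E1 enzymes, which open each pathway, were lower in embryos where they were called. Of 12 tested probe sets of Sae1, Uba1y, Uba3, Uba6 and Uba7, 5 were lower and 0 higher, with a median change of -0.72. The share called was 41.7%, against 32.1% of all probe sets (12.8% lower) and 53.0% of those above the 75th percentile. Some E1 probe sets were dimmer than that percentile, so the last share is from a brighter set. Uba3, the catalytic subunit of the NEDD8 E1, fell most. Its brightest probe set (1435164_s_at) read 6510.2, 4289, 5909.5 and 4873 on MII arrays 1 to 4 and 462, 2230.4, 1685 and 891 on one-cell arrays 1 to 4. Every embryo value lay below every oocyte value, a change of -2.24 ± 0.42 (adjusted p = 0.000601) or 4.73-fold. The probe set 1417202_s_at also separated the groups, with 4497, 1859.5, 3716 and 2789 in oocytes and 679, 1403, 1303 and 564 in embryos (-1.73 ± 0.37, adjusted p = 0.00182). The remaining one, 1431746_a_at, overlapped between groups and was not called (-0.72 ± 0.36, adjusted p = 0.14). The mean over all 3 changed by -1.56 ± 0.32 (adjusted p = 0.00165). In Affymetrix naming the suffixes _s and _x mark probe sets that can match more than 1 transcript, which applies to 15 of the 94 tested members and to both called probe sets of Uba3.

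Uba6, the second E1 for ubiquitin, fell by a smaller amount. Its probe set 1428944_at read 192, 132, 125 and 168 in oocytes and 64.0, 44.4, 112 and 64.6 in embryos (-1.06 ± 0.33, adjusted p = 0.0203). The groups did not overlap there, nor in 1428946_at, with 139.5, 124, 182 and 128 against embryo values from 50.4 to 102 (-0.97 ± 0.32, adjusted p = 0.0275). The brightest, 1428945_at, changed by -0.70 ± 0.31 without a call (adjusted p = 0.097), and was called without one-cell array 3 (-0.90, adjusted p = 0.0396). The call of 1428944_at was lost on leaving out MII array 1 or 4, and likewise one-cell array 2 (adjusted p then 0.06 to 0.0763), and that of 1428946_at on leaving out MII array 1, 3 or 4, and likewise one-cell array 4 (0.0519 to 0.106). The latter changed by -0.64 (adjusted p = 0.122) without one-cell arrays 1 and 4 together and by -0.62 (0.161) with the hybridization controls in the model, and the former lost its call there too (-0.99 and -0.83, adjusted p = 0.0502 and 0.0972). Averaged over its 3 probe sets the gene changed by -0.91 ± 0.26 (adjusted p = 0.0133).

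Sae1, a subunit of the SUMO E1, was called in 1 of 4 probe sets. That one (1416443_a_at) read 249.9, 143, 253 and 113 in oocytes and 20.3, 121, 121 and 58.4 in embryos. One-cell array 1 was lowest and the groups overlapped (-1.29 ± 0.44, adjusted p = 0.0344), and the call was lost on leaving out MII array 1 or 3, and likewise one-cell array 1 or 4 (changes from -1.24 to -0.84, adjusted p from 0.0689 to 0.111). In all, 9 of 19 alternatives ended it, and the change was -0.53 (adjusted p = 0.295) without one-cell arrays 1 and 4 together and -0.36 (0.504) with the hybridization controls in the model. The other probe sets changed by -0.71 ± 0.36, -0.04 ± 0.53 and 0.26 ± 0.37, and the first of these (1430021_a_at) was called without one-cell array 1 (-0.89, adjusted p = 0.0438). Uba7, the E1 for the interferon-induced modifier ISG15, changed by 0.96 ± 0.38 (adjusted p = 0.0671) and the Y-linked Uba1y by 0.47 ± 0.44 (adjusted p = 0.48), both without a call. The tested probe set of Uba1y (1427543_s_at) carries the _s suffix, so its signal may come from another transcript.

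Of the modifiers themselves, Sumo3 rose in its 1 tested probe set. It read 319.7, 161, 333 and 312 in oocytes and 756, 1127, 1411 and 743 in embryos (1422457_s_at). The lowest embryo array was above the highest oocyte array, a change of 1.81 ± 0.32 (adjusted p = 0.00036). The _s suffix means that this probe set can match more than 1 transcript. The other Sumo3 probe set, 1439372_at, did not pass the filter, and its groups overlapped (means 31.25 in oocytes and 54.85 in embryos). Nedd8 read 209.9, 191, 246 and 245 in oocytes and 194, 542, 507 and 290.3 in embryos. One-cell array 1 lay among the oocyte values and the other 3 embryo arrays above them. The change of 0.65 ± 0.33 was not called with all arrays (adjusted p = 0.152). It was called in 4 of 19 alternatives: without one-cell array 1 (0.93, adjusted p = 0.0159), without one-cell arrays 1 and 4, with array weights and with the hybridization controls in the model. It was not called in the rest, quantile normalization and centring among them, and the lowest change over all alternatives was 0.24.

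Ube2f, an E2 that carries NEDD8, was higher in 2 of its 4 tested probe sets. The stronger change was that of 1429568_x_at, at 33.4, 77.4, 70.3 and 96.3 in oocytes and 167, 191, 205 and 193 in embryos (1.40 ± 0.33, adjusted p = 0.00345). The other called probe set (1450275_x_at) rose from 94.6, 144, 178 and 169.7 to 347, 290.2, 303 and 262 (1.02 ± 0.29, adjusted p = 0.0113), again with no overlap. The remaining 2 changed by 0.87 ± 0.33 (adjusted p = 0.0504) and 0.64 ± 0.35 (adjusted p = 0.195). All 4 lay above 0, and their mean changed by 0.98 ± 0.25 (adjusted p = 0.00709). After quantile normalization neither call was kept (0.89 and 0.64, adjusted p = 0.0544 and 0.102), and the second was also lost after centring (0.70, adjusted p = 0.134). The probe set at 0.87 (1432426_a_at) was called without one-cell array 1 (0.76, adjusted p = 0.0487). Both called probe sets of Ube2f carry the _x suffix and can match more than 1 transcript. On the NEDD8 branch, then, the called probe sets of the E1 subunit Uba3 were lower in embryos and those of the E2 Ube2f higher.

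The E2 enzymes listed for DNA repair, Lys63-linked chains and N-terminal ubiquitin were higher in embryos in 8 of 12 tested probe sets and lower in 0, with a median change of 1.62 (0.17 over all probe sets). Calls made up 66.7% of these probe sets, against 32.1% of all and 53.0% of those above the 75th percentile, a brighter set than this list. The called ones cover 5 of 6 genes: Ube2a, Ube2b, Ube2n, Ube2v1 and Ube2w. The list was drawn up with earlier results of these data known, so its counts only describe these genes. Ube2t, a repair E2 that was listed with the cell cycle instead, was not called (-0.10 ± 0.38). Ube2w, which attaches ubiquitin to the amino terminus of its targets, held the largest rise of any member. Its probe set 1452054_at read 33.3, 3.5, 30.0 and 32.3 in oocytes and 482, 867, 738 and 548 in embryos (4.37 ± 0.38, adjusted p = 6.88e-07). A second, 1426398_at, rose from between 25.9 and 92.0 to 767, 675, 688 and 572 (3.45 ± 0.33, adjusted p = 1.56e-06). Embryo and oocyte arrays were far apart in both. The oocyte signal did not exceed the array median on 2 MII arrays for the first and on 1 for the second, so the size of the fold (20.7 and 10.9 on signal + 10) is poorly set. Its other tested probe set, 1457544_at, went the other way without a call: 107, 180.3, 115 and 165 in oocytes and 7.8, 115, 78.2 and 79.4 in embryos (-1.20 ± 0.49, adjusted p = 0.0754).

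Ube2a and Ube2b are the mouse Rad6 proteins, which mark the replication clamp and histone H2B with ubiquitin. Both tested probe sets of Ube2a rose. The brighter one (1417609_at) read 128, 158, 258 and 156 in oocytes and 433, 998, 1383 and 833 in embryos (2.25 ± 0.35, adjusted p = 0.00012). The other (1448772_at) went from 66.5, 92.9, 81.3 and 83.2 to 183, 376, 396 and 284 (1.76 ± 0.31, adjusted p = 0.000344). In both, one-cell array 1 was the lowest embryo array and still above all oocyte arrays. Ube2b rose in 1 of 2: 1423106_at read 83.3, 95.5, 70.2 and 105 in oocytes and 548, 268, 270.0 and 199 in embryos (1.66 ± 0.33, adjusted p = 0.000947), while 1423107_at overlapped (0.25 ± 0.31, adjusted p = 0.592).

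Ube2n, also known as Ubc13, builds Lys63-linked chains together with the inactive E2 variants Ube2v1 and Ube2v2. Its probe set 1422559_at was tight in both groups, at 371, 311, 345 and 387 in oocytes and 915, 1176, 1105 and 1082 in embryos (1.57 ± 0.25, adjusted p = 0.00018). The dimmer 1435384_at overlapped and was not called (-0.48 ± 0.40, adjusted p = 0.408). Ube2v1 rose from 12.9, 4.5, 17.6 and 41.5 to 83.1, 69.3, 108 and 62.5 (1415755_a_at, 1.76 ± 0.45, adjusted p = 0.00633), from at or under the median on 3 MII arrays. Its other probe set changed by 1.12 ± 0.36 (adjusted p = 0.0249), a call that was lost on leaving out MII array 1 or 2, and likewise one-cell array 3 or 4 (adjusted p then 0.0583 to 0.0993), and after quantile normalization (0.61, 0.278) and centring (0.81, 0.169). Ube2v2 changed by 0.70 ± 0.43 without a call (adjusted p = 0.251).

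**Figure D2:**
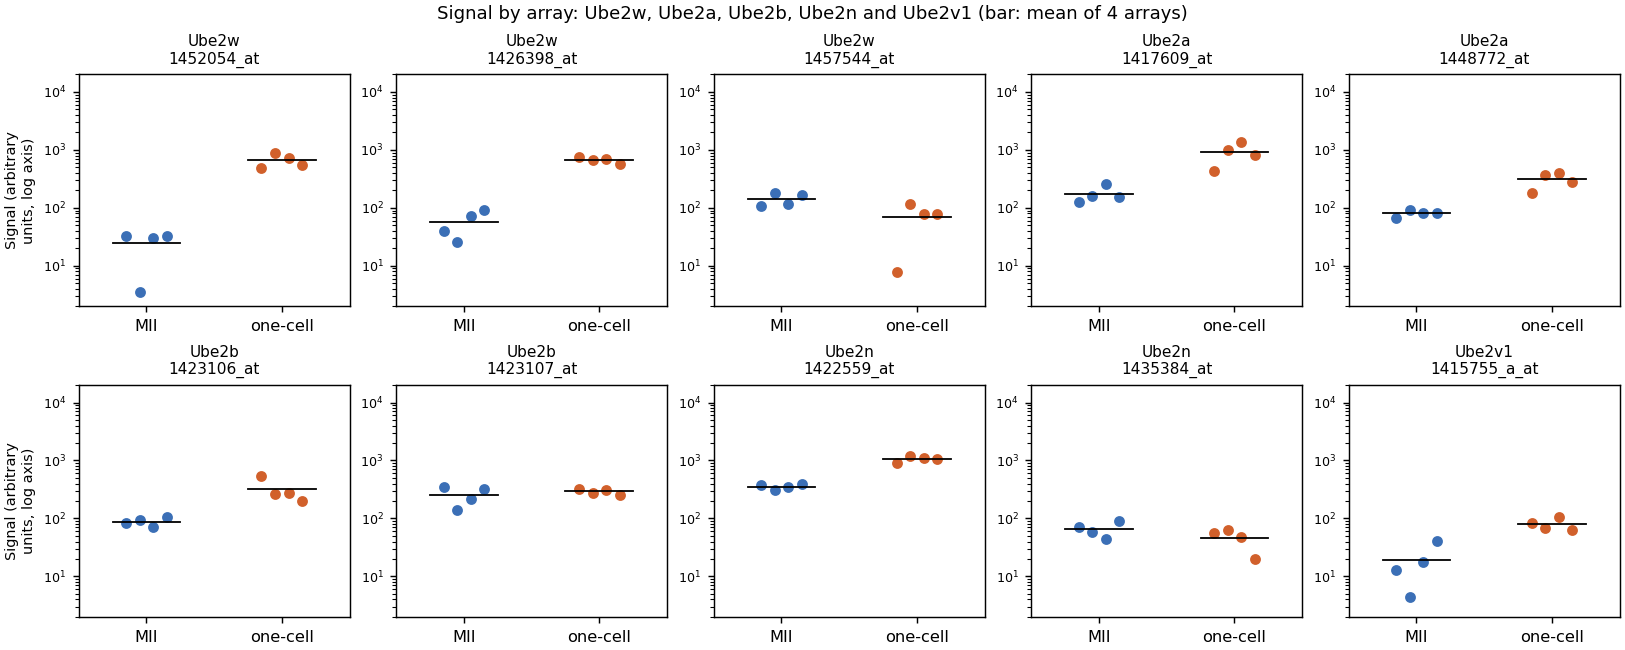
Signal on each array (vertical log axis, arbitrary units) for 10 probe sets of Ube2w, Ube2a, Ube2b, Ube2n and Ube2v1, with MII arrays 1 to 4 at left and one-cell arrays 1 to 4 at right in each panel and a bar at the mean of 4 arrays. The groups are apart in the called probe sets, and in the uncalled probe sets of Ube2w (1457544_at), Ube2b (1423107_at) and Ube2n (1435384_at) they overlap.

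Calls among E2 enzymes of the endoplasmic reticulum pathway went both ways, and the probe sets of Ube2g1 and of Ube2g2 disagreed within each gene. Ube2g1 held a 4.92-fold rise in 1415688_at, from 608, 987, 1037 and 1158 to 3447, 4866, 5211 and 5028 (2.30 ± 0.31, adjusted p = 3.06e-05). The embryo arrays were at least 3447 and the oocyte arrays at most 1158. Its other probe set (1455094_s_at) read 1125, 939, 2189 and 1087 in oocytes and 1148, 669, 1041 and 769 in embryos and was not called (-0.50 ± 0.32, adjusted p = 0.265). Ube2g2, which works in the degradation of misfolded proteins of the reticulum, fell in 1417032_at from 1115, 749, 1191 and 869 to 525, 596, 444 and 448 (-0.94 ± 0.27, adjusted p = 0.0139; -0.84 and 0.0575 without MII array 3). Its dim probe set 1417033_at was not called (0.34 ± 0.38). Ube2j2, a membrane-anchored E2, read 133, 172, 178 and 165 in oocytes and 409.6, 251, 202 and 343 in embryos (0.81 ± 0.29, adjusted p = 0.0431). That call was lost in 7 of the 8 fits that left out 1 array, all but the one without one-cell array 3 (adjusted p then 0.0551 to 0.117), and with the replicate number as a block (0.0743). The change was 0.42 to 0.50 after quantile normalization, after centring, without one-cell arrays 1 and 4 together and with the hybridization controls in the model (adjusted p 0.234 to 0.305). Ube2j1 was not called (0.53 ± 0.29, adjusted p = 0.191).

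Among E2 enzymes of the cell cycle, Ube2c rose and Ube2s was not called. Ube2c, which starts ubiquitin chains for the anaphase-promoting complex, read 187, 170.5, 215 and 159 in oocytes and 253, 505, 355 and 478 in embryos. All embryo arrays were above all oocyte arrays (1.04 ± 0.29, adjusted p = 0.0112), but the change was smaller after quantile normalization (0.66, adjusted p = 0.142) and centring (0.72, adjusted p = 0.232), where the call was lost. Ube2s, which extends those chains, read 1611, 828, 845 and 736 in oocytes and 582, 583, 610.3 and 904 in embryos (-0.53 ± 0.31, adjusted p = 0.215). Ube2r2, an E2 of cullin ligases, fell in 1415768_a_at from 112, 185, 66.6 and 112 to 42.4, 24.3, 45.9 and 79.0 (-1.16 ± 0.39, adjusted p = 0.0304). Its groups overlapped and the call was lost on leaving out MII array 1, 2 or 4, and likewise one-cell array 2 (adjusted p then 0.0679 to 0.12). Its other probe set changed by -0.15 ± 0.38. Ube2t, the E2 of the Fanconi anaemia pathway, was bright and not called, with 1639.8, 1290.3, 1545 and 1354 in oocytes and 539, 1928, 2067 and 1546 in embryos (-0.10 ± 0.38, adjusted p = 0.881).

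The largest fall of any member was that of Ube2h, an E2 that works with the CTLH ligase complex. All 3 tested probe sets fell and none overlapped between groups. The brightest, 1418631_at, read 8410.5, 8084, 8038 and 9624 in oocytes and 1276, 2095, 1912 and 1632 in embryos (-2.32 ± 0.31, adjusted p = 3e-05). In 1438971_x_at the values were 3753, 4296, 3127 and 4349 against 287, 632, 663 and 453 (-2.97 ± 0.31, adjusted p = 3.53e-06), and in 1428791_at 2042, 599.9, 1313 and 683 against 94.6, 260.2, 257 and 216 (-2.35 ± 0.40, adjusted p = 0.000295). One-cell array 1 was the lowest in all 3. The folds were 4.99, 7.82 and 5.09, and the mean of the 3 changed by -2.54 ± 0.28 (adjusted p = 1.3e-05).

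**Figure D3:**
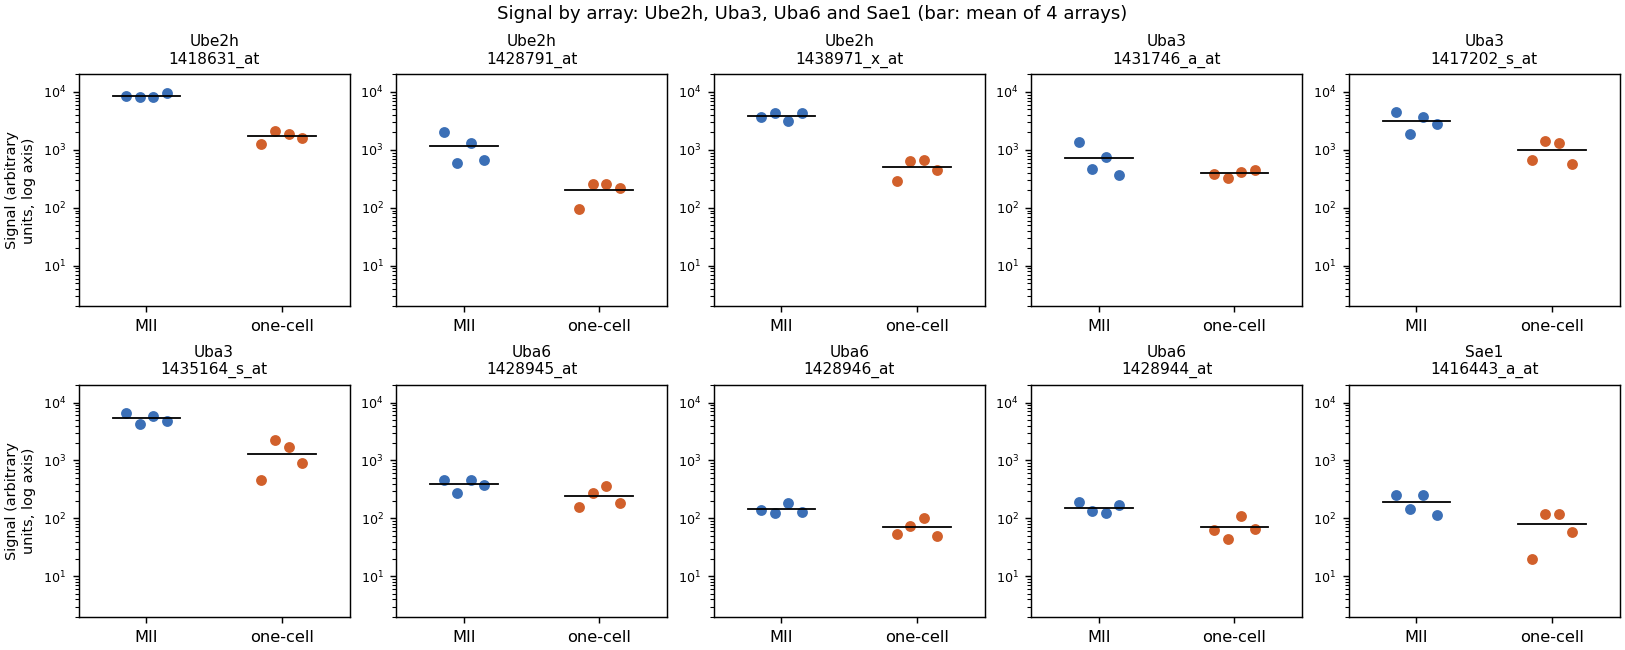
Signal on each array (vertical log axis, arbitrary units) for 10 probe sets of Ube2h, Uba3, Uba6 and Sae1, with MII arrays at left, one-cell arrays at right and a bar at the mean of 4 arrays. The 3 probe sets of Ube2h and both called ones of Uba3 have every embryo array below every oocyte array, while the uncalled one of Uba3 (1431746_a_at), the brightest of Uba6 (1428945_at) and that of Sae1 overlap.

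In the UbcH5 enzymes 2 probe sets were called, both of Ube2d3. Over all probe sets tested 32.1% were called, and 53.0% of those above the 75th percentile. Ube2d1, Ube2d2a and Ube2d3 belong to this family, which serves many ligases. Ube2d1 was not called in its 1 tested probe set (-0.70 ± 0.37). None of 4 tested probe sets of Ube2d2a was called, and the brightest read 6943, 9345, 7966 and 11279.5 in oocytes and 7500.1, 9800.1, 6030.1 and 8043 in embryos (1416476_a_at, -0.18 ± 0.36). Of 7 probe sets of Ube2d3, 2 fell and the other 5 were not called, at changes from -0.59 to 0.04. The called ones were 1450859_s_at, at 1699, 740.2, 1639 and 994 against 218, 448, 530.2 and 246 (-1.80 ± 0.36, adjusted p = 0.00097), and 1423114_at, at 2852, 3485, 3114 and 3204 against 711, 2226, 2033 and 1687 (-1.04 ± 0.35, adjusted p = 0.033). Neither overlapped, but the second lost its call on leaving out any 1 of the oocyte arrays, or one-cell array 4 (adjusted p then 0.0561 to 0.0735). It was also lost in 6 other alternatives, with the change at -0.61 (adjusted p = 0.14) after quantile normalization, -0.57 (0.125) without one-cell arrays 1 and 4 together and -0.46 (0.341) with the hybridization controls in the model. Averaged over all 7, Ube2d3 changed by -0.68 ± 0.26 (adjusted p = 0.0563).

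The list of general E2 enzymes, with Ube2h and Ube2d3 included, had 2 of 29 probe sets higher and 6 lower, with a median of -0.42. Calls made up 27.6% of them, against 32.1% of all probe sets. The 2 rises were in Ube2u, from 39.7, 47.4, 59.3 and 38.1 to 490.0, 139, 148 and 155 (1.92 ± 0.39, adjusted p = 0.00116), and in 1 of 2 probe sets of Ube2q1, from 54.3, 88.8, 66.5 and 55.0 to 308, 109, 211 and 243 (1429311_at, 1.52 ± 0.34, adjusted p = 0.00265). The other Ube2q1 probe set was not called (-0.53 ± 0.42). Ube2z, which takes ubiquitin from Uba6, fell in 1423949_at from 508, 462, 549.7 and 403 to 226, 246, 399 and 230.5 (-0.81 ± 0.28, adjusted p = 0.0339), and not in 1436635_at (0.44 ± 0.33). That call was lost on leaving out MII array 1, 2 or 3, and likewise one-cell array 2 or 4 (adjusted p then 0.0564 to 0.103), and the change was -0.50 (0.216) with the hybridization controls in the model. No probe set of Ube2d1, Ube2e1, Ube2e2, Ube2e3, Ube2k, Ube2o or Ube2q2 was called, and their changes ran from -0.80 (Ube2e1) to 0.55 (Ube2k). Neither Ube2cbp (-0.90 ± 0.54) nor Ube2d-ps (0.46 ± 0.31 and -1.27 ± 0.56) was called.

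The SUMO ligases of the PIAS family were called in both directions, and 2 of the 4 genes held calls of opposite sign. Of 9 tested probe sets 3 were higher and 2 lower, with a median of 0.08. The share called was 55.6%, against 32.1% of all probe sets and 53.0% of those above the 75th percentile, which some PIAS probe sets did not reach. The 3 probe sets of Pias1 gave 3 different answers. The brightest, 1422581_at, read 3151, 5059.8, 4171 and 5413 in oocytes and 3409.6, 4022, 5361 and 6079 in embryos, and was not called (0.08 ± 0.34). The dim 1455611_at rose from 46.1, 49.6, 68.6 and 43.1 to 423, 338, 633 and 332 (2.80 ± 0.30, adjusted p = 4.4e-06). In the last, 1455486_at, embryos were lower, at 1011, 1182, 1340.0 and 1291 against 492, 671, 996 and 672 (-0.80 ± 0.28, adjusted p = 0.0416). That call was lost in 7 of the 8 fits that left out 1 array, all but the one without one-cell array 3 (changes from -0.88 to -0.64, adjusted p from 0.051 to 0.113), and the change was -0.44 (0.286) with the hybridization controls in the model.

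Pias2 rose in 1426456_a_at, from 182, 226, 220.5 and 230.2 to 663, 472, 634 and 615 (1.43 ± 0.26, adjusted p = 0.000504), and in 1419454_x_at, from 52.0, 40.6, 86.3 and 45.3 to 188, 96.5, 113 and 107 (1.05 ± 0.34, adjusted p = 0.0272). The second of these calls was lost without MII array 1, 2 or 4 (adjusted p from 0.0645 to 0.0763), and after quantile normalization it was 0.64 (0.14). It fell in 1428725_at, from 342, 496, 545 and 587 to 114, 289, 273 and 242 (-1.12 ± 0.32, adjusted p = 0.0133). That fall was smaller, and not called, without one-cell arrays 1 and 4 (-0.76, adjusted p = 0.0716) and with the hybridization controls in the model (-0.67, adjusted p = 0.152). Pias3 (0.32 ± 0.41) and both probe sets of Pias4 (0.07 ± 0.29 and 0.06 ± 0.28) were not called. The brighter Pias4 probe set had 543, 989, 679.7 and 627 in oocytes and embryo values from 609.7 to 986, so the ranges nearly coincided.

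SENP proteases were called in 8 of 12 tested probe sets, 5 higher and 3 lower, with a median of -0.14. That is 66.7%, against 32.1% of all probe sets and 53.0% of those above the 75th percentile, which not all SENP probe sets reached. Senp2, which acts on SUMO at the nuclear pore, rose from between 4.2 and 40.1 to 102, 106, 125 and 169 (2.47 ± 0.43, adjusted p = 0.000354), with 3 of 4 oocyte values at or under the array median. Its other 3 probe sets did not pass the filter. Their means in oocytes and embryos were 1.25 and 3.8, 8.0 and 7.85, and 22.1 and 17.9. The nucleolar proteases Senp3 and Senp5 rose too. Senp3 read 283, 473, 313 and 382 in oocytes and 1355, 676, 725 and 959 in embryos (1.30 ± 0.30, adjusted p = 0.00293), and Senp5 45.9, 75.3, 113 and 70.6 against 212, 184, 133 and 135 (1.06 ± 0.33, adjusted p = 0.0191). Neither overlapped, and the Senp5 call was lost on leaving out MII array 1, and likewise one-cell array 2 (adjusted p = 0.0754 and 0.0516), and after quantile normalization, at 0.62 (0.14). The SUMO chain editors differed from these. Senp7 fell from 183, 114, 114 and 102 to 24.9, 74.1, 79.0 and 62.1 (-1.04 ± 0.37, adjusted p = 0.0391). Its call was lost on leaving out any 1 of the oocyte arrays, or embryo array 1 or 4 (changes from -1.12 to -0.73, adjusted p from 0.0536 to 0.146), and with the replicate number as a block (0.0688). It was -0.64 (0.141) without one-cell arrays 1 and 4 together and -0.47 (0.331) with the hybridization controls in the model. Senp6 was not called in either probe set (-0.76 ± 0.34 and -0.15 ± 0.35).

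Senp1, which matures and removes SUMO, and the NEDD8 protease Senp8 each held a rise and a fall. Senp1 rose in 1424330_at from 175, 124, 95.3 and 137 to 260.0, 419.5, 688 and 605 (1.75 ± 0.33, adjusted p = 0.000659). It fell in 1428925_at from 586, 434, 902 and 496 to 121, 204, 375 and 243 (-1.37 ± 0.34, adjusted p = 0.00554; -0.75 and 0.0936 with the hybridization controls in the model). The brightest, 1451319_at, overlapped widely (-0.13 ± 0.39). Senp8 fell in 1437307_at from 541, 630.5, 610.5 and 522 to 164, 124, 219 and 194 (-1.69 ± 0.27, adjusted p = 0.00017) and rose in 1454084_a_at from 344, 284, 269.7 and 227 to 558, 740.3, 729 and 598 (1.20 ± 0.26, adjusted p = 0.00224). After centring the rise was 0.88 (adjusted p = 0.124). Averaged over their probe sets, Senp1 (0.08 ± 0.29), Senp8 (-0.34 ± 0.23) and Pias2 (0.45 ± 0.21) were not called, and Pias1 changed by 0.69 ± 0.23 (adjusted p = 0.0328).

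**Figure D4:**
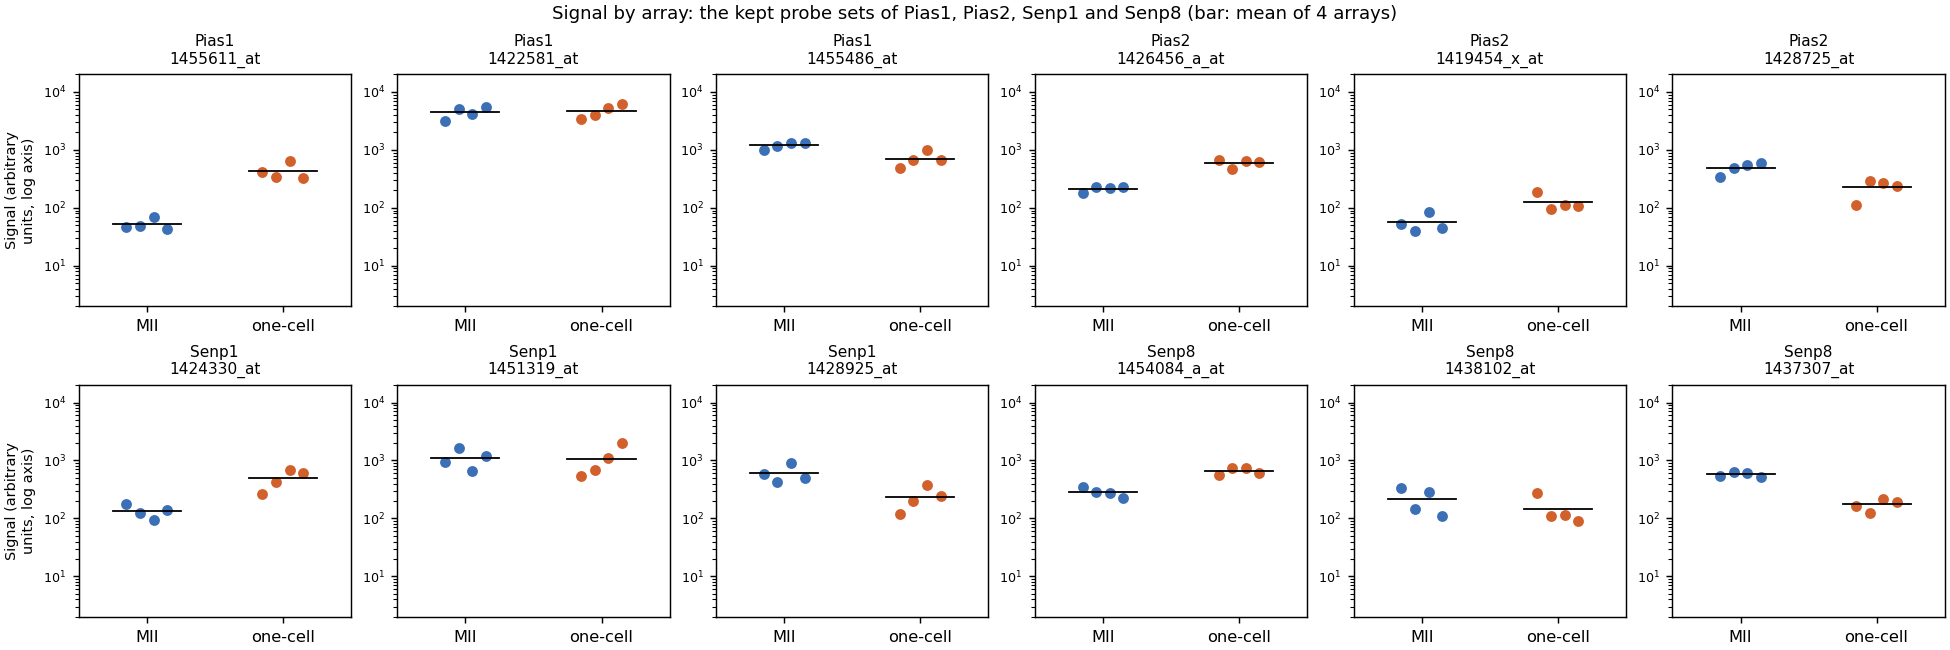
Signal on each array (vertical log axis, arbitrary units) for the 12 tested probe sets of Pias1, Pias2, Senp1 and Senp8, with MII arrays at left, one-cell arrays at right and a bar at the mean of 4 arrays. In each gene at least 1 probe set has all embryo arrays above all oocyte arrays and another has them all below.

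Probe sets of 1 gene could disagree on the same arrays. Calls of opposite sign were found in 4 of the 26 member genes with at least 2 tested probe sets (15.4%, against 5.16% of 4787 such genes on the array). The difference between probe sets of the same gene was then taken within each array, for 79 pairs. In 24 of them (30.4%) the oocyte and embryo arrays did not overlap, which is close to the 27.2% of 12005 pairs over all genes. The largest differences were those between 1457544_at of Ube2w and its other probe sets (4.65 and 5.57), followed by Pias1 (1455611_at over 1455486_at, 3.60), Senp1 (1424330_at over 1428925_at, 3.13), Senp8 (1454084_a_at over 1437307_at, 2.88) and Ube2g1 (2.80). Which exons or transcript ends the probes cover is not known here, so the direction is not settled for Pias1, Pias2, Senp1 and Senp8 as genes. The same limit holds for Ube2w, Ube2g1 and other genes whose probe sets differed without calls of opposite sign.

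Other genes of these pathways, taken by their brightest probe set, also moved both ways. Of 50 measured, 9 were higher and 9 lower in embryos, with a median of 0.14 (of all genes 34.8% were called, 20.1% higher and 14.7% lower, with a median of 0.16). On the NEDD8 branch, Nae1, the partner of Uba3 in the E1, fell from 5323 ± 672 (SD, n = 4) to 2265 ± 1150 (-1.39 ± 0.39, adjusted p = 0.0116). Of 10 genes of NEDD8 ligation 2 were higher and 3 lower. Dcun1d5, a ligase cofactor that brings NEDD8 to cullins, fell from 4194 ± 1919 to 988 ± 375 (-2.05 ± 0.38, adjusted p = 0.000611), and Dcun1d2, of the same family, from 853 ± 234 to 234 ± 83.1 (-1.85 ± 0.31, adjusted p = 0.000252), with its other probe set at 0.16 ± 0.46. The change of Nae1 was -0.72 (adjusted p = 0.0609) without one-cell arrays 1 and 4, and -0.66 (adjusted p = 0.169) with the hybridization controls as a covariate.

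Partners of Ube2c and Ube2s in the anaphase-promoting complex held 2 rises and 2 falls among 7 (34.8% of all genes were called). The cullin subunit Anapc2 rose from 78.9 ± 36.1 to 473 ± 55.0 (2.51 ± 0.31, adjusted p = 1.4e-05), and the activator Fzr1 from 23.9 ± 10.4, under the median of 3 MII arrays, to 136 ± 34.5 (2.13 ± 0.38, adjusted p = 0.000397). Among 14 SUMO ligases and readers, 2 were higher and 2 lower. The ubiquitin reader Uimc1 (1.79 ± 0.29, adjusted p = 0.000178) and the PIAS-like Zmiz2 (1.43 ± 0.28, adjusted p = 0.000986; 1.11 and 0.0759 after centring) rose. The nuclear pore SUMO ligase Ranbp2 (-1.40 ± 0.35, adjusted p = 0.00581) and Rnf111, a ubiquitin ligase that binds SUMO (-0.97 ± 0.28, adjusted p = 0.0141), fell, and Rnf111 lost its call after centring (-1.28, 0.0543) and with the hybridization controls in the model (-0.68, 0.0972). Of 3 other SUMO proteases Desi1 rose (2.19 ± 0.38, adjusted p = 0.000313), although its second probe set did not (0.14 ± 0.30), and Uspl1 was not called with all arrays (0.87 ± 0.52, adjusted p = 0.232; 1.34 and just under the threshold without one-cell array 4). Of 6 further modifiers Fau, a ubiquitin-like protein fused to a ribosomal protein, rose from 307 ± 87.7 to 1369 ± 348 (2.12 ± 0.30, adjusted p = 5.5e-05), while Atg12 was not called in its brightest probe set (0.62 ± 0.36) and was in the other (2.04 ± 0.51, adjusted p = 0.00536). Of 10 other E1 and E2 genes 1 was higher and 2 lower, led by Atg3, the E2 of the autophagy modifier LC3, which fell from 1771 ± 694 to 455 ± 217 (-1.97 ± 0.37, adjusted p = 0.000697).

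Of the 42 called members, 23 stayed called in the same direction under each of the alternatives in which they were tested, up to 19 per probe set, 16 higher and 7 lower, from 18 genes. The 7 lower ones were the 3 probe sets of Ube2h, 2 of Uba3, 1 of Ube2d3 and 1 of Senp8. The 16 higher ones include both rising probe sets of Ube2w and those of Ube2a, with Ube2b, Ube2n, Ube2g1, Sumo3, Senp2, Senp3 and 1 each of Pias1, Pias2 and Senp1. None of the 42 changed sign under any of these alternatives.

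**Figure D5:**
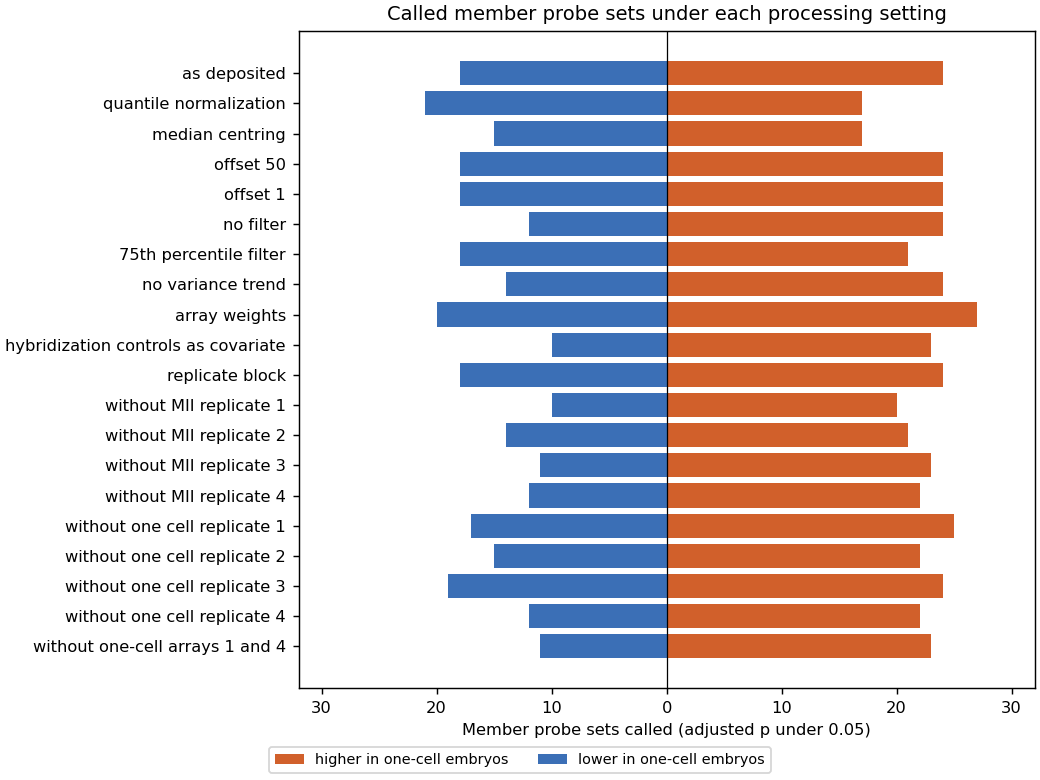
Number of member probe sets called higher (to the right) and lower (to the left) in one-cell embryos with the signals as deposited and under 19 alternatives, each bar counted from 0. The number higher lies between 17 and 27 and the number lower between 10 and 21.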

How the data were processed

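The values used are the linear intensities that the authors deposited, 1 for each probe set on each of 8 arrays. Per the labels, polysomal RNA was amplified by in vitro transcription in 2 rounds, with a biotin label and 1 colour per array. No label names the array software, the summary method or a genome build. The mean after trimming 2% of probe sets at each end was 150.0 on every array, while medians differed, so totals had been scaled and distributions had not been equalized. Amplification favours 3′ ends, and scaling hides changes in total polysomal mRNA. The table has no detection calls.

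Control probe sets (64) were left out of the tests. An offset of 10 was added before log2, probe sets above the array's median on at least 4 arrays were kept (23336), and the groups were compared with limma 3.58.1 in R 4.3.3 (variance trend, two-sided, Benjamini-Hochberg over all kept, threshold 0.05). Genes outside the member list were taken by their brightest kept probe set, by mean log2 signal. Gene symbols are those of GEO's platform annotation. Replicates are independent batches per the labels, and replicate numbers did not pair the arrays.

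The members, lists and alternatives were chosen with earlier results of these data known. Named by rule were, in each role list and direction, up to 5 called probe sets with the smallest p, a fixed panel of central genes, genes with opposite calls, and the 2 genes with the smallest p in each related list (58 member probe sets, 39 called). Ube2z, Ube2v1, Ranbp2, Rnf111, the second probe set of a related gene, and the uncalled members outside the panel were chosen for mention once values were known. The fit was tested on simulated data with known changes. It recovered 2.75% of 2-fold, 48.2% of 4-fold and 84.5% of 8-fold changes, and 3.87% of its calls were false. Far fewer probe sets were changed there than were called in the real data, so these shares do not carry over directly. A member that was not called may still have changed. Alternatives covered normalization, offset, filter, variance model, array weights, hybridization controls, the replicate block and leaving out arrays.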

Additional observations from a re-analysis of the deposited data

Results flagged for a closer look

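Values far from the other 3 arrays of their group were found in 8 of 122 groups of 4 arrays examined (Dixon's ratio of the gap to the range, on the log2 scale, above its 95% critical value), where chance gives about 1 in 20. Of these, 4 were on one-cell array 1, where hybridization controls were brightest. Ube2u was 490.0 there against 139 to 155 on the other embryo arrays, Pias3 139 against 40.1 to 48.5, the Ube2f probe set 1432426_a_at 126 against 86.4 to 91.4, and Ube2g1 3447, the lowest, against 4866 to 5211. On MII array 2, where the Actb ratio was highest, Sumo3 was 161 against 312 to 333, and Ube2w (1452054_at) 3.5 against 30.0 to 33.3. On one-cell array 4, Ube2s was 904 against 582 to 610.3, and on one-cell array 3, Ube2z was 399 against 226 to 246. The calls of Ube2u, Ube2g1, Sumo3 and Ube2w were kept without the array in question, as was that of Ube2z.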

How the results depend on the processing

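The number of members higher in embryos (24) was 20 to 25 with 1 array left out, and 14 as genes with probe sets averaged. The number lower (18) was 10 to 19 with 1 array left out, 10 with the hybridization controls as a covariate, 11 without one-cell arrays 1 and 4, and 4 as averaged genes, of which fewer are tested. After centring, 2937 of all probe sets were higher (4511 as deposited) and 5 other pathway genes (9). Elsewhere the cause was not tested. The replicate number as a block left the member counts at 24 and 18. Deviations of same-numbered arrays correlated at -0.16, -0.11, 0.14 and 0.04, so the numbers do not pair the arrays, and not every array correlated best with its own number. Only uncalled members changed sign. Pias4 (1418861_at) was at -0.26 after centring, -0.024 with array weights, -0.20 with the controls as covariate, -0.24 without one-cell arrays 1 and 4, and from -0.055 to 0.185 with 1 array left out; its 1455394_at at -0.24 after centring, -0.10 without arrays 1 and 4, and -0.071 to 0.242. Pias1 (1422581_at) was at -0.24 after centring and -0.077 to 0.221 with 1 array left out. Pias3 was at -0.0085 after quantile normalization, -0.27 with the controls, -0.074 without arrays 1 and 4, and -0.034 to 0.491. Ube2b (1423107_at) was at -0.049 after quantile normalization and -0.062 after centring. Sae1 was at 0.058 with an offset of 50 and -0.513 to 0.452 with 1 array left out (1430022_at), and at -0.016, -0.053, -0.43 and -0.15 after quantile normalization, centring, the controls as covariate and without arrays 1 and 4 (1440185_x_at). Senp1 (1451319_at) was at 0.052, 0.12 and 0.12 after quantile normalization, array weights and the controls, and -0.478 to 0.135 with 1 array left out, and Senp6 (1452627_at) at -0.507 to 0.048. The number of arrays limits precision, and signals near the array median set a fold poorly.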
